A study of Mus musculus with 18 samples.

Results

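The calcium pumps and the sodium-calcium exchanger of 3 mouse pancreatic ductal adenocarcinoma cell lines were described through 6 genes, taken by symbol from a table of 24527 entries. These were the pump genes Atp2a2, Atp2a3, Atp2b1, Atp2b4 and Atp2c1 and the exchanger gene Slc8a1. The lines PD454, PD7591 and PD883, of mixed strain background, were treated for 48 h with ionomycin at 2.5 µM, with TGFb at 10 ng/ml, or with the vehicle DMSO. Ionomycin is a calcium ionophore, which lets calcium pass through membranes, and TGFb is a cytokine known to bring many carcinoma cells into epithelial-mesenchymal transition. The driver genotype of the lines is not given in the sources used here. RNA was sequenced in 18 libraries, 2 for each of 9 line and treatment groups. The 2 libraries of a group carry separate numbers in the labels, but nothing says that they came from separate cultures, so p-values measure the spread between these libraries, which may be technical.

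Cells keep the calcium of the cytosol far below that of the medium and of the internal stores. SERCA pumps (Atp2a genes) use ATP to move calcium from the cytosol into the endoplasmic reticulum (ER), PMCA pumps (Atp2b genes) move it out across the plasma membrane, and the SPCA pump (Atp2c1) moves calcium and manganese into the Golgi. The exchanger NCX1 (Slc8a1) exports calcium against sodium entry and is best known from heart muscle. SERCA2 is the common ER pump of most tissues, while SERCA3 is found in blood cells and some epithelia and has a lower affinity for calcium.

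Atp2a3 and Atp2b4 showed the largest effects among the 5 pump genes. The bases just upstream of an annotated start of each are shown because the 2 windows differ in base composition. For Atp2b4 that start lies inside the gene and not at its 5′ end. They come from RefSeq on GRCm38.p6, each running 5′ to 3′ on the strand of the gene, for Atp2a3 at chr11:72960919-72961168 on the plus strand and for Atp2b4 at chr1:133753748-133753997 on the minus strand. Capitals mark the SMAD box (CAGAC) and the GC box (GGGCGG) on either strand.
Atp2a3: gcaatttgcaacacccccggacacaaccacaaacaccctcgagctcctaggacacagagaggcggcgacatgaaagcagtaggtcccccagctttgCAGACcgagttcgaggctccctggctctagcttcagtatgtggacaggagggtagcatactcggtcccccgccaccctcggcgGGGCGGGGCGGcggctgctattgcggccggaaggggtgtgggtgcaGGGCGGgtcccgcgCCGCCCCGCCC
Atp2b4: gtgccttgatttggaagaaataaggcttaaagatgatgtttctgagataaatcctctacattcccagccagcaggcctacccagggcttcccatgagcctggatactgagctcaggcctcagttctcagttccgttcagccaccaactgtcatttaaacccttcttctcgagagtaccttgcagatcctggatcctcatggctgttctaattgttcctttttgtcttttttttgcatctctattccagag

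The window of Atp2a3 was 66.8% G or C and held 5 GC boxes, some of which overlap by a base, and 1 SMAD box. The window of Atp2b4 was 45.6% G or C and held neither. GC boxes were not particular to Atp2a3: both windows of Atp2b1 held them as well, 4 and 3, at 78.4% and 80.8% G or C. Of the 250 bases of the first Atp2b1 window, 236 are annotated as exon, against 0 in the Atp2a3 window. The median over 32851 windows of 250 bases was 52.4% G or C, 32.7% of them held a GC box and 42.2% a SMAD box. On both strands, neither window held the NFAT core (GGAAA, in 55.6% of windows), the AP-1 motif (TGANTCA, 6.75%) or the E-box read by ZEB and SNAI repressors (CAGGTG, 17.2%). The window of Atp2a3 ends at the 5′ end of its gene (chr11:72961169). That of Atp2b4 lies inside its gene (chr1:133699457-133801041, minus strand), so the 2 windows compare unlike positions. The Atp2b4 window belongs to 1 of 7 annotated starts of that gene, and which start these cells used was not tested. RefSeq windows matched 5 of the 6 genes, all but Atp2a2.

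Library totals ran from 17591005 to 37894692 counts, and 13827 entries passed a filter on low counts and were tested, among them 5 of the 6 genes. Slc8a1 did not pass. In 3 libraries, DMSO PD454 14, DMSO PD883 8 and TGFb PD883 12, genes with short transcripts stood above the mean of all libraries, with a Spearman correlation between transcript length (the longest transcript of a gene) and deviation of -0.265, -0.304 and -0.288 across genes. The cut for naming a library was -0.2, and the other libraries ran from -0.179 to 0.253. By treatment the correlation ran from -0.0807 to 0.211 with ionomycin, from -0.288 to 0.163 with TGFb and from -0.304 to 0.253 with DMSO. Known targets of the treatments were checked first. The calcineurin target Rcan1 rose by 2.77 ± 0.30 on the log2 scale with ionomycin, and the SMAD target Smad7 by 1.80 ± 0.29 with TGFb. Levels are given as CPM, read counts scaled to a common library size. All 10 ductal markers were detected. They summed to 5395 to 9701 CPM with ionomycin, 3993 to 7051 CPM with TGFb and 4907 to 7708 CPM with DMSO. Of the 10, 3 were higher and 0 lower with ionomycin, and 3 were higher and 4 lower with TGFb. That is 30% and 70% of them, beside 33.3% and 50.7% of all tested genes. The sums hide large opposite changes of single markers with TGFb. Log2 fold changes there were -5.86 for Krt19, -3.94 for Muc1, -3.34 for Cdh1 and 9.26 for Cldn4. Immune markers summed to at most 1.92 CPM in any library and endothelial markers to at most 3.49 CPM. In bulk RNA, fewer cells of a type and less RNA per cell cannot be told apart.

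Ionomycin and TGFb were each set against DMSO, and against each other, in a model of treatment and line. These comparisons share libraries, so their values are given side by side. With ionomycin 4 of the 6 genes rose (Atp2a2, Atp2a3, Atp2b1 and Atp2b4) and Atp2c1 fell, where 33.3% of all tested genes were called, 17.2% as higher and 16.1% as lower. With TGFb 2 of the 6 rose (Atp2b4 and Atp2c1) and 3 fell (Atp2a2, Atp2a3 and Atp2b1), where 50.7% of tested genes were called, 24.3% as higher and 26.5% as lower. Between ionomycin and TGFb directly, 3 of the 6 were higher with ionomycin and 2 were lower, where 62.9% of tested genes were called, 31.0% as higher and 31.9% as lower. Of the 6 genes, the 5 tested had a median log2 fold change of 1.00 with ionomycin and -0.51 with TGFb. Over all tested genes it was -0.034 and -0.0022. The 6 genes were chosen with earlier results of these data known, so these medians are a description only. For 90% of tested genes the log2 fold change lay between -1.11 and 1.17 with ionomycin and between -2.19 and 1.68 with TGFb, and Atp2a3 and Atp2b4 lay outside both ranges. Every sign given here was the same in the 3 lines.

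**Figure D1:**
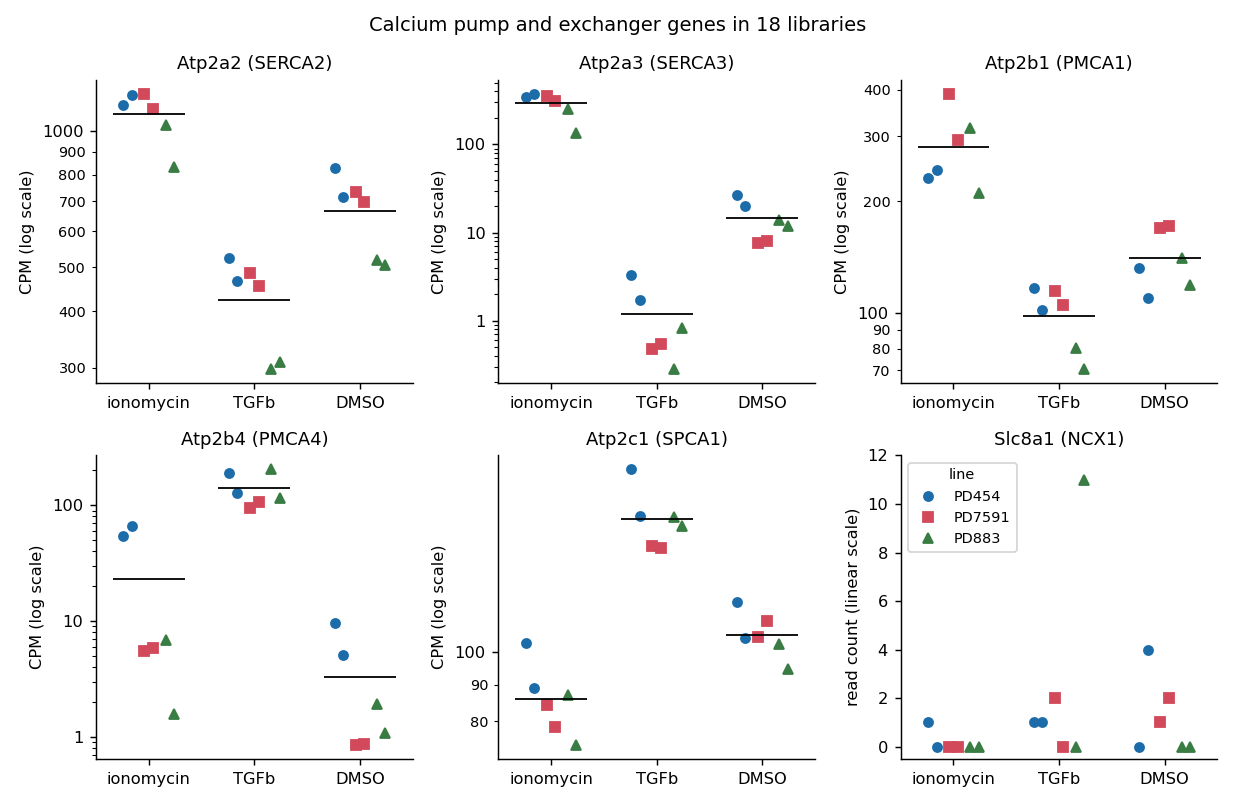
CPM, counts scaled to a common library size, of the 5 pump genes (log scale), and read counts (linear scale) of Slc8a1, in each of 18 libraries; each point is a library, its shape gives the line, and bars in the pump panels are means of the 3 line means. Atp2a3 lies between 136 and 379 CPM with ionomycin, at or below 3.27 CPM with TGFb, and between 7.67 and 26.5 CPM with DMSO.

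**Figure D2:**
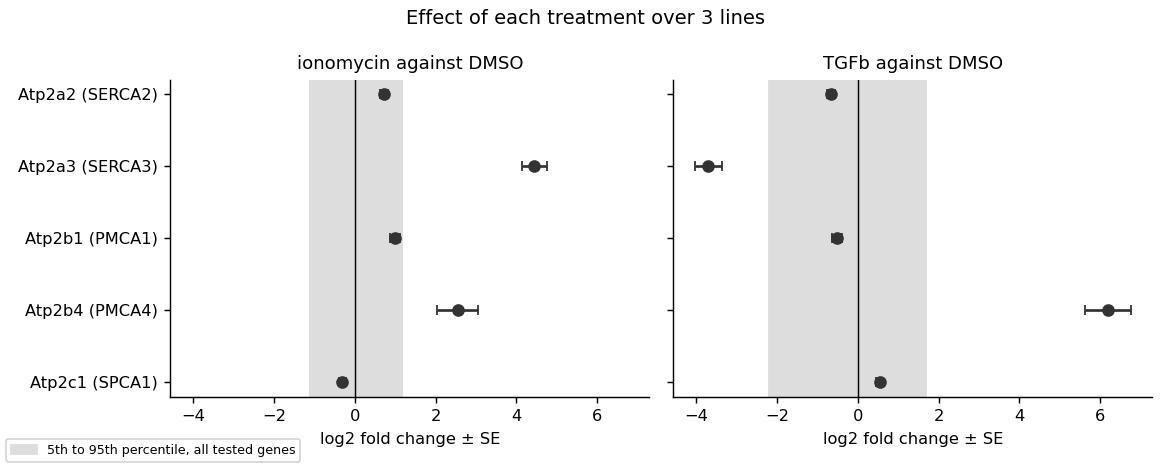
Log2 fold change ± SE over the 3 lines for ionomycin against DMSO (left) and TGFb against DMSO (right), with the band from the 5th to the 95th percentile of all 13827 tested genes in grey. Atp2a3 lies beyond the band at 4.45 and -3.70, and Atp2b4 at 2.54 and 6.19.

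Among the ER pumps, Atp2a2 encodes SERCA2 (ENSMUSG00000029467.15; mm10 chr5:122453513-122502225, minus strand). It had 833, 1127 and 1209 CPM as lowest, median and highest value with ionomycin, 298, 460 and 525 CPM with TGFb, and 507, 707 and 828 CPM with DMSO. All ionomycin libraries lay above all others, while the TGFb and DMSO libraries overlapped, since the DMSO libraries of PD883 (507 and 518 CPM) lay below a TGFb library of PD454 (525 CPM). Atp2a2 had a log2 fold change of 0.72 ± 0.09 with ionomycin (edgeR adjusted p = 9.56e-06) and fell by 0.67 ± 0.09 with TGFb (adjusted p = 5.78e-06). Ionomycin stood above TGFb by 1.39 ± 0.09 (adjusted p = 3.32e-10).

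Atp2a3, the gene of SERCA3 (ENSMUSG00000020788.15; mm10 chr11:72961169-72993044, plus strand), had separate ranges under the 3 treatments. With ionomycin it had 351 and 379 CPM in PD454, 355 and 312 CPM in PD7591, and 252 and 136 CPM in PD883. With TGFb it had 3.27 and 1.71 CPM in PD454, 0.475 and 0.548 CPM in PD7591, and 0.279 and 0.833 CPM in PD883. With DMSO it had 26.5 and 20.0 CPM in PD454, 7.67 and 7.98 CPM in PD7591, and 13.97 and 11.7 CPM in PD883. Every ionomycin library lay above every DMSO library, and these above every TGFb library, of which the lowest rested on 6 counts. Atp2a3 rose 21.8-fold with ionomycin, a log2 fold change of 4.45 ± 0.30 (adjusted p = 1.54e-08). It was number 68 of the 13827 tested genes by size of effect. With TGFb it fell by 3.70 ± 0.33 (adjusted p = 3.34e-08). Between the treatments it stood 8.15 ± 0.37 higher with ionomycin than with TGFb (adjusted p = 3.46e-12), and 8.84 higher without line PD454.

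The balance of the ER pumps was read as a ratio of counts inside each library, which does not depend on scaling. Per 100 counts of Atp2a2, Atp2a3 had 26.7 ± 5.68 counts with ionomycin, 0.262 ± 0.205 with TGFb and 2.20 ± 0.986 with DMSO (mean ± SD of 3 line means). The ranges over libraries, 16.3 to 31.6 with ionomycin, 0.0936 to 0.624 with TGFb and 1.05 to 3.20 with DMSO, did not overlap. The log2 ratio was 3.69 higher with ionomycin than with DMSO and 3.27 lower with TGFb than with DMSO, each with p = 0.00926 in an exact two-sided permutation within lines (n = 6 libraries each), the smallest p that its 216 arrangements allow, and 0.0111 after adjustment over 6 ratio tests.

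Among the plasma membrane pumps, Atp2b1 encodes PMCA1 (ENSMUSG00000019943.10; mm10 chr10:98914406-99026143, plus strand), the pump found in nearly all tissues. It had 211, 268 and 391 CPM as lowest, median and highest value with ionomycin, 70.4, 103 and 116 CPM with TGFb, and 110, 136 and 172 CPM with DMSO. The ionomycin libraries lay above all others, and the TGFb and DMSO libraries overlapped. Atp2b1 rose by 1.00 ± 0.13 on the log2 scale with ionomycin (edgeR adjusted p = 1.44e-05), with nearly the same value in PD454 (0.97), PD7591 (1.00) and PD883 (1.03). With TGFb it fell by 0.51 ± 0.13 (adjusted p = 0.00276), a call that was lost without line PD7591 (adjusted p = 0.0637). Ionomycin stood above TGFb by 1.51 ± 0.13 (adjusted p = 1.41e-08).

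Atp2b4, the gene of PMCA4 (ENSMUSG00000026463.17; mm10 chr1:133699457-133801041, minus strand), was low in PD7591 and PD883 with DMSO. With ionomycin it had 53.8 and 65.6 CPM in PD454, 5.55 and 5.91 CPM in PD7591, and 6.84 and 1.59 CPM in PD883. With TGFb it had 189 and 127 CPM in PD454, 95.3 and 107 CPM in PD7591, and 205 and 115 CPM in PD883. With DMSO it had 9.71 and 5.14 CPM in PD454, 0.852 and 0.872 CPM in PD7591, and 1.94 and 1.09 CPM in PD883. The TGFb libraries lay above all others, while the ionomycin and DMSO libraries overlapped across lines. They also overlapped within PD883, where an ionomycin library (1.59 CPM) lay below a DMSO library (1.94 CPM). Atp2b4 rose 72.9-fold with TGFb, by 6.19 ± 0.57 on the log2 scale (adjusted p = 4.80e-08), number 82 of the tested genes by size. That value was 5.42 in a fit with no line term and 6.78 without PD454. It rose 5.83-fold with ionomycin, by 2.54 ± 0.51 (adjusted p = 0.00103). Ionomycin differed from TGFb by -3.64 ± 0.51 (adjusted p = 6.29e-06), and by -2.59 with no line term, by -4.66 without PD454 and by -2.82 without PD883.

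Per 100 counts of Atp2b1, Atp2b4 had 9.43 ± 13.6 counts with ionomycin, 149 ± 58.7 with TGFb and 2.56 ± 3.01 with DMSO. Libraries ranged from 0.754 to 27.0 with ionomycin, from 83.1 to 255 with TGFb and from 0.503 to 7.36 with DMSO. In TGFb libraries Atp2b4 thus had about as many counts as Atp2b1 or more, and in DMSO libraries a small share of them. The log2 ratio was 6.52 higher with TGFb than with DMSO (exact permutation p = 0.00926, adjusted 0.0111) and 1.32 higher with ionomycin than with DMSO (exact permutation p = 0.0278, adjusted 0.0278). By line, the ionomycin difference ran from 0.17 to 2.09. In PD883 the ionomycin libraries, at 2.16 and 0.754 per 100 counts, enclosed the DMSO libraries, at 1.38 and 0.917. The ionomycin difference was 1.12 and no longer passed (adjusted p = 0.0741) without the 3 libraries rich in short transcripts. It was 0.94 without PD454 and 1.90 without PD883, where 2 lines are too few for a call.

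Atp2c1 encodes SPCA1, the Golgi pump for calcium and manganese (ENSMUSG00000032570.17; mm10 chr9:105403539-105527319, minus strand). It had 74.0, 85.5 and 103 CPM as lowest, median and highest value with ionomycin, 140, 153 and 181 CPM with TGFb, and 94.7, 105 and 118 CPM with DMSO. The TGFb libraries lay above all others, and the ionomycin and DMSO libraries overlapped. Atp2c1 rose by 0.54 ± 0.08 on the log2 scale with TGFb (edgeR adjusted p = 1.87e-05) and fell by 0.31 ± 0.08 with ionomycin (adjusted p = 0.00720). The ionomycin call was lost with the duplicate libraries summed and without line PD7591 (adjusted p = 0.158 and 0.144). In its annotated exons, 1837 bases (18.9%) overlap Aste1 on the opposite strand, and the strand mode of the counting is not given in the sources used here. Aste1 itself had 3.03 to 8.86 CPM in the 18 libraries. Its log2 fold change was -0.59 ± 0.20 with ionomycin (edgeR adjusted p = 0.0302) and -0.12 ± 0.19 with TGFb (0.637). The part of Aste1 in the Atp2c1 counts was not tested.

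Slc8a1, the gene of NCX1 (ENSMUSG00000054640.15; mm10 chr17:81373105-81738377, minus strand), was barely detected. All 18 libraries held 23 counts of it, of which 1 was in an ionomycin library, 15 were in 4 TGFb libraries and 7 in 3 DMSO libraries. Pooled over the 6 libraries of a treatment, its CPM were 0.00809 with ionomycin (exact Poisson 95% interval 0.000205 to 0.0451), 0.108 with TGFb (0.0607 to 0.179) and 0.0539 with DMSO (0.0217 to 0.111), intervals that cover counting error only. The library TGFb PD883 12 held 11 of the counts and DMSO PD454 14 held 4, which leaves 8 in the other 16 libraries. These 2 libraries were the deepest, and had counts in 16543 and 16811 entries, against 14772 to 15587 in the others. In an edgeR fit with no low-count filter, run after seeing the data, Slc8a1 did not pass between ionomycin and DMSO (adjusted p = 0.302), TGFb and DMSO (0.568) or ionomycin and TGFb (0.0637). Without these 2 libraries the adjusted p values were 0.600, 0.989 and 0.454 in the same order.

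To compare levels between genes, CPM were divided by the annotated exon length in kilobases (GENCODE vM21). With ionomycin the order per kilobase was Atp2a2 (179 ± 22.2), Atp2a3 (56.3 ± 17.3), Atp2b1 (18.5 ± 3.58), Atp2c1 (8.86 ± 0.896) and Atp2b4 (1.89 ± 2.58 CPM per kb, mean ± SD of 3 line means). With TGFb it was Atp2a2 (69.6 ± 17.2), Atp2c1 (15.9 ± 1.42), Atp2b4 (11.4 ± 2.72), Atp2b1 (6.45 ± 1.30) and Atp2a3 (0.224 ± 0.214 CPM per kb). With DMSO it was Atp2a2 (109.6 ± 22.4), Atp2c1 (10.9 ± 0.667), Atp2b1 (9.23 ± 1.75), Atp2a3 (2.77 ± 1.49) and Atp2b4 (0.267 ± 0.295 CPM per kb). Slc8a1 came last under each. Atp2a2 was thus the most abundant pump RNA in every library, and Atp2a3 took the place next to it with ionomycin and the lowest place among the pumps with TGFb. The ranges of neighbours in the order overlapped for Atp2a3 and Atp2b1 with ionomycin, although Atp2a3 was higher in 6 of 6 libraries, for Atp2c1 and Atp2b4 with TGFb (Atp2c1 higher in 5 of 6) and for Atp2c1 and Atp2b1 with DMSO (Atp2c1 higher in 5 of 6).

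Summed per kilobase, the SERCA pair reached 235 ± 39.3 CPM per kb with ionomycin, 69.8 ± 17.3 with TGFb and 112 ± 23.1 with DMSO. Of the 123 CPM per kb by which ionomycin exceeded DMSO, Atp2a2 gave 69.3 and Atp2a3 53.5, so the small fold change of the abundant gene weighed more than the large one of the scarce gene. The 2 gains were nearly equal in PD454, where Atp2a2 went from 127 with DMSO to 192 with ionomycin and Atp2a3 from 4.40 to 69.1. They lay further apart in PD883, where Atp2a2 went from 84.3 to 153 and Atp2a3 from 2.43 to 36.7. The PMCA pair reached 20.4 ± 2.63 CPM per kb with ionomycin, 17.9 ± 2.29 with TGFb and 9.49 ± 1.55 with DMSO. The difference of 10.9 between ionomycin and DMSO was made of 9.23 from Atp2b1 and 1.63 from Atp2b4, and the difference of 8.36 between TGFb and DMSO of -2.78 from Atp2b1 and 11.1 from Atp2b4. The PMCA sum was therefore higher under both treatments, carried by a different gene in each. These sums were not tested, and they rest on annotated lengths rather than on the isoforms used.

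**Figure D3:**
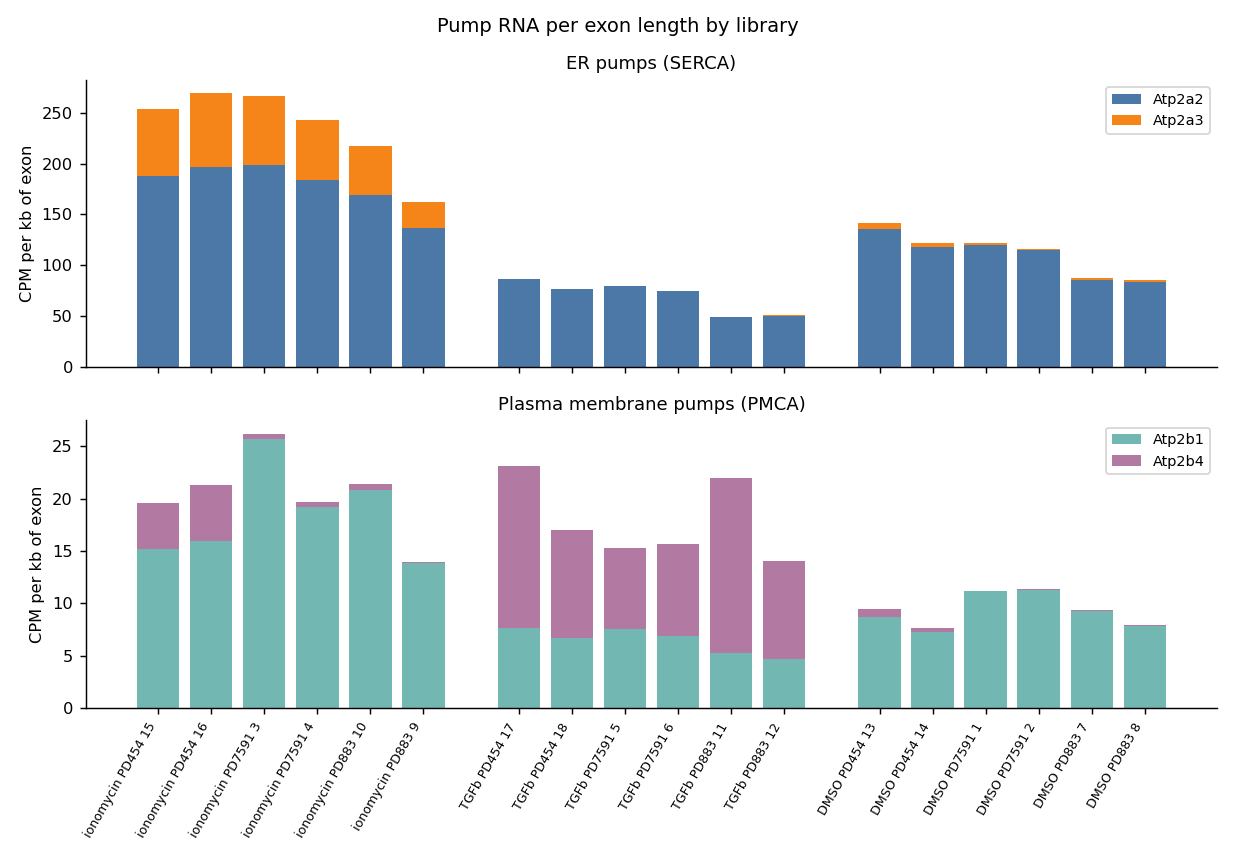
CPM per kilobase of exon of the ER pumps (top) and the plasma membrane pumps (bottom), stacked by gene, for each of 18 libraries. The SERCA sum averages 235 with ionomycin, 69.8 with TGFb and 112 with DMSO, and the lower part of each PMCA bar (Atp2b1) is the smaller part in the 6 TGFb libraries.

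The lines differed in their levels with DMSO for 3 of the 6 genes, where 47.9% of tested genes were called (edgeR test on 2 degrees of freedom). With DMSO, Atp2b4 averaged 7.42 CPM in PD454, 0.862 CPM in PD7591 and 1.51 CPM in PD883 (adjusted p = 0.00111). Atp2a3 averaged 23.2 CPM in PD454, 7.83 CPM in PD7591 and 12.8 CPM in PD883 (adjusted p = 0.00310). Atp2a2 averaged 772 CPM in PD454, 715 CPM in PD7591 and 512 CPM in PD883 (adjusted p = 0.00822), a call that was lost without DMSO PD883 7 (adjusted p = 0.0584) or DMSO PD883 8 (0.0681). PD454 was the highest of the lines for each of these genes. Atp2b1 (adjusted p = 0.0815) and Atp2c1 (adjusted p = 0.496) did not pass, and Atp2b1 passed without ionomycin PD883 10 (adjusted p = 0.0459) or ionomycin PD883 9 (0.0462).

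None of the genes passed the test that a treatment effect was unequal in the 3 lines, with 2.59% of tested genes called for ionomycin and 5.26% for TGFb. The unadjusted edgeR p of this test was 0.00509 for Atp2a3 with ionomycin and 0.00510 for Atp2b4 with TGFb. DESeq2, at its adjusted p, called 1 of the 5 tested pump genes for ionomycin and 0 for TGFb, where it called 1284 and 1486 of all genes. With limma-voom none passed, at an adjusted p of 0.0648 for Atp2a3 with ionomycin and 0.156 for Atp2b4 with TGFb. Taken line by line, 21.0%, 18.6% and 22.5% of tested genes were called with ionomycin in PD454, PD7591 and PD883, and 31.0%, 37.8% and 38.4% with TGFb. Within lines, Atp2a3 rose with ionomycin by 3.98 ± 0.32 in PD454, 5.41 ± 0.35 in PD7591 and 3.92 ± 0.33 in PD883 on the log2 scale, and the adjusted p for a difference between lines was 0.0856 with edgeR and 0.0196 with DESeq2. The edgeR call was made with no low-count filter (adjusted p = 0.0378), without ionomycin PD883 10 (0.0375) and when the 3 short-transcript libraries were left out (0.0319). PD7591, with the lowest DMSO level of Atp2a3, had the largest log2 rise, and its ionomycin level was between those of the other lines.

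Atp2b4 rose with TGFb by 4.44 ± 0.49 in PD454, 6.87 ± 0.60 in PD7591 and 6.74 ± 0.58 in PD883, with an adjusted p for a difference between lines of 0.0732. It passed without ionomycin PD883 9 (adjusted p = 0.0163), without ionomycin PD883 10 (0.0164), and without DMSO PD454 14 and TGFb PD883 12 together (0.0439). With ionomycin it rose by 3.03 ± 0.47 in PD454 and 2.72 ± 0.61 in PD7591, and its log2 fold change in PD883 was 1.50 ± 0.58 (adjusted p = 0.0758). The PD883 pair under ionomycin was uneven, with 1.59 CPM in library 9 and 6.84 CPM in library 10. The smaller effects of Atp2b1 and Atp2c1 did not pass in each line: Atp2b1 with TGFb had -0.15 in PD454 (adjusted p = 0.605), and Atp2c1 with ionomycin had -0.21 in PD454 (0.264) and -0.29 in PD883 (0.131).

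**Figure D4:**
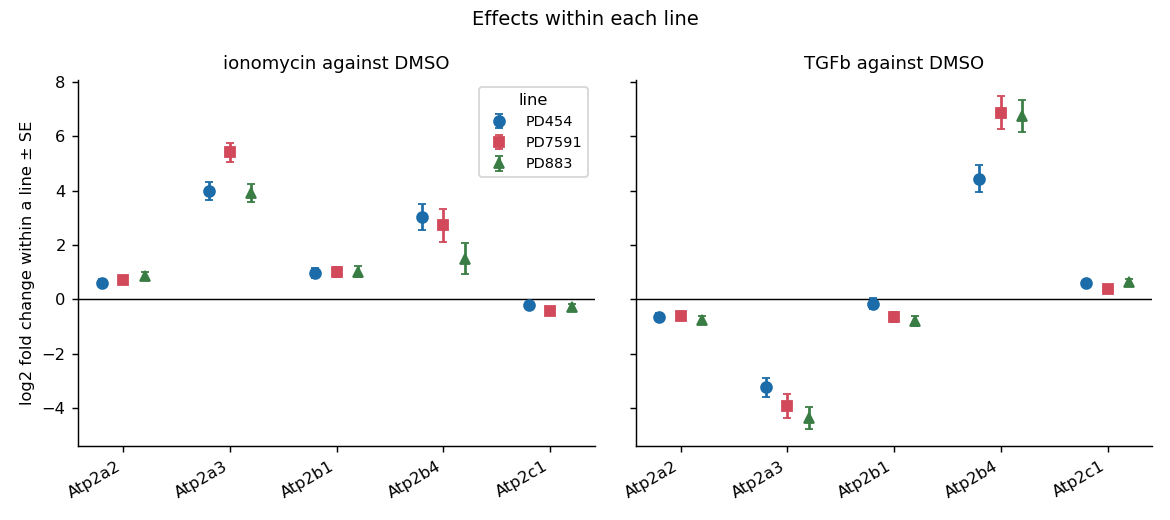
Log2 fold change ± SE within each line for ionomycin against DMSO (left) and TGFb against DMSO (right), fitted with 1 mean for each of the 9 groups. Every gene has the same sign in the 3 lines, and the values spread over the lines from 3.92 to 5.41 for Atp2a3 and 1.50 to 3.03 for Atp2b4 with ionomycin, and from 4.44 to 6.87 for Atp2b4 with TGFb.

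Over the 18 libraries the levels of Atp2a2, Atp2a3 and Atp2b1 followed each other on the log2 CPM scale, with Pearson r of 0.94 for Atp2a2 and Atp2a3, 0.92 for Atp2a2 and Atp2b1 and 0.89 for Atp2a3 and Atp2b1. Atp2c1 ran the other way, with r of -0.85 to Atp2a3, and Atp2b4 with r of 0.71 to Atp2c1. These libraries share treatments and lines, so r is a description. Among 11224 genes with a mean of at least 2 CPM, the most like Atp2a3 were Rab27b (r = 0.975), a GTPase of secretory vesicles, Clic5 (0.973) and Rfk (0.972). The most like Atp2a2 were Lrrc8d (0.973), a subunit of the volume-regulated anion channel, Slc7a1 (0.972) and Gcnt1 (0.971). For Atp2b4 they were Rap1gap2 (0.959), Syn1 (0.958) and Tubb3 (0.956), for Atp2b1 Elmod2 (0.966), P3h2 (0.966) and Xpot (0.958), and for Atp2c1 Rtf1 (0.970), Ssbp3 (0.967) and Syt11 (0.955).

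Of 12 paralogs of these genes, 5 passed the filter on low counts. Against DMSO, 20% of these 5 were called with each treatment, below the 33.3% of all tested genes with ionomycin and 50.7% with TGFb. With ionomycin, 0 rose and 1 fell, the potassium-dependent exchanger Slc24a5 (log2 fold change -0.76 ± 0.23, adjusted p = 0.0163), a call lost without line PD454 (0.155), without line PD883 (0.0577), without the short-transcript libraries (0.0800), with duplicates summed (0.152) and with no line term (0.227). With TGFb, 0 rose and 1 fell, the Golgi pump Atp2c2. It had 0.0811 CPM with TGFb and 0.511 CPM with DMSO and fell by 2.52 ± 0.52 (adjusted p = 5.17e-04), opposite in sign to Atp2c1. The call was kept under all 33 alternatives but rests on few counts. These were 1 to 3 in a TGFb library and 3 to 36 in a DMSO library, with the 36 in DMSO PD454 14. The mitochondrial exchanger gene Slc8b1 had 19.1 ± 1.24 CPM with ionomycin, 18.9 ± 0.915 with TGFb and 19.5 ± 1.31 with DMSO, with log2 fold changes of -0.03 ± 0.11 and -0.04 ± 0.11 against DMSO. The SERCA1 gene Atp2a1 had at most 12 counts in a library, and the PMCA2 and PMCA3 genes Atp2b2 and Atp2b3 at most 6 and 4.

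Of 12 genes for proteins that bind or regulate the pumps, 11 were found in the table and 8 were tested. Of these 8, 25% were called with ionomycin and 50% with TGFb, no more than the 33.3% and 50.7% of all tested genes. The muscle SERCA inhibitors were near 0, with 3 counts of Pln, 0 of Sln and 4 of Mrln in the 18 libraries. With ionomycin 2 of the 8 tested rose, Hax1 (0.61 ± 0.13, adjusted p = 0.00150), which binds phospholamban and SERCA, and Vmp1 (0.37 ± 0.10, adjusted p = 0.0104), an ER membrane protein known to act on SERCA. The Vmp1 call was lost without line PD7591 (0.0622) or PD883 (0.0517), with scaling by library totals (0.0543), with duplicates summed (0.0914) and with no line term (0.232). With TGFb 3 rose and 1 fell. The PMCA subunits neuroplastin (Nptn) and basigin (Bsg) went opposite ways there, with Nptn at 0.45 ± 0.12 (adjusted p = 0.00321, lost without line PD7591 at 0.119) and Bsg at -0.54 ± 0.18 (adjusted p = 0.0180). The Bsg call was lost without DMSO PD883 7 (0.0529) or TGFb PD883 12 (0.0588), and without PD883 its log2 fold change was -0.15 (0.239). Vmp1 (0.39 ± 0.10) and the ER disulfide isomerase Pdia3 (0.37 ± 0.10, lost without line PD7591 at 0.114) also rose. With duplicates summed, the calls of Nptn (0.0589), Bsg (0.123) and Pdia3 (0.0822) were lost, and with no line term those of Nptn (0.0667), Bsg (0.0773), Pdia3 (0.0835) and Vmp1 (0.140).

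Other calcium genes were counted in the same way. Of 13 genes of ER release and store-operated entry, 6 rose and 0 fell with ionomycin, with a median log2 fold change of 0.49 over 11 tested, and 5 rose and 3 fell with TGFb, with a median of 0.36. That is 54.5% of the tested genes called with ionomycin and 72.7% with TGFb, beside 33.3% and 50.7% of all tested genes. With ionomycin the plasma membrane channel Orai1 rose by 0.76 ± 0.11 and Saraf, which limits store-operated entry, by 0.53 ± 0.09. With TGFb Saraf rose by 0.57 ± 0.09 and the ER calcium sensor Stim1 fell by 0.78 ± 0.12. Of 13 calcium-binding proteins of the ER and Golgi, 8 rose and 1 fell with ionomycin, and 5 rose and 1 fell with TGFb. That is 69.2% and 46.2% of them, with median log2 fold changes of 0.33 and 0.080. Nucb1 (0.97 ± 0.08) and the chaperone Hspa5 (0.81 ± 0.14) rose and Rcn1 (-1.20 ± 0.22) fell with ionomycin. Rcn3 rose by 4.21 ± 0.44 with TGFb, as did Rcn2 by 1.09 ± 0.12.

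Of 9 genes of mitochondrial calcium uptake, 3 rose and 0 fell with ionomycin, and 1 rose and 3 fell with TGFb. These shares, 33.3% and 44.4%, were near those of all tested genes, and the medians were 0.31 and -0.12. The pore gene Mcu had 220 ± 6.02 CPM with ionomycin, 36.8 ± 15.6 CPM with TGFb and 151 ± 2.00 CPM with DMSO. It fell by 2.08 ± 0.19 on the log2 scale with TGFb (edgeR adjusted p = 4.36e-08). The pore's inhibitory subunit, listed as Ccdc109b, rose by 1.16 ± 0.18 with ionomycin. The rise of Mcu with ionomycin, 0.55 ± 0.18 (adjusted p = 0.0263), was lost under 9 of 33 alternatives, among them leaving out DMSO PD454 14 (0.0612), DMSO PD883 8 (0.0561), ionomycin PD883 10 (0.0760) or ionomycin PD7591 4 (0.0529).

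**Figure D5:**
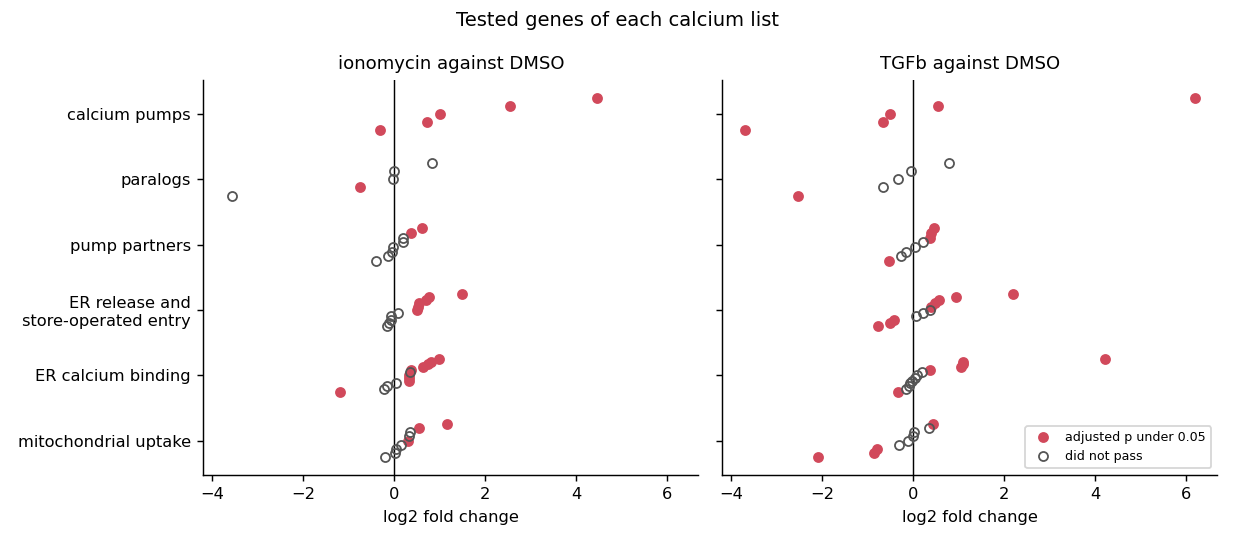
Log2 fold changes of the tested genes of each list for ionomycin against DMSO (left) and TGFb against DMSO (right), filled where the adjusted p was under 0.05. Among the pumps the points spread from -0.31 to 4.45 with ionomycin and from -3.70 to 6.19 with TGFb. The row labelled ER calcium binding holds proteins of the ER and Golgi.

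Some markers of other cell types were called too, where 33.3% of all tested genes were called with ionomycin and 50.7% with TGFb. Few were tested: 6 fibroblast, 3 muscle, 1 acinar and 3 endothelial markers. With TGFb 33.3%, 33.3%, 100% and 0% of these were called in the same order. With ionomycin the shares were 0%, 66.7%, 0% and 100%. Fibroblast markers, of which 2 of 8 rose with TGFb, summed to 2.21 to 5.64 CPM with ionomycin, 7.66 to 102 CPM with TGFb and 2.66 to 6.21 CPM with DMSO. Muscle markers, of which 1 of 8 rose with TGFb and 2 fell with ionomycin (Tnnt2, and Tnni3, which was lost under 12 of 33 alternatives), summed to 8.01 to 14.4 CPM with ionomycin, 120 to 206 CPM with TGFb and 20.6 to 40.4 CPM with DMSO. Tnnt2, the gene of cardiac troponin T, made up most of that sum, at 155 ± 39.4 CPM with TGFb and 23.1 ± 5.57 CPM with DMSO, while Myh6, Myh7 and Ckm had 7, 10 and 5 counts in the 18 libraries. Acinar markers, of which 1 of 6 rose with TGFb and Cpa1, Pnlip and Ptf1a were at 0, summed to at most 6.18 CPM. Endothelial markers, of which 3 of 6 rose with ionomycin, (Pecam1 lost under 15 of 30 alternatives and Cdh5 under 5 of 32), summed to 0.470 to 3.49 CPM with ionomycin, 0.232 to 1.52 CPM with TGFb and 0.363 to 0.878 CPM with DMSO. The part of these markers in the pump results was not tested.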

How the data were processed

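RNA-seq read counts per gene symbol, deposited by the authors as raw counts without scaling, were analysed for 18 libraries. Per the submitters' processing notes, CASAVA, Trimmomatic 0.32, STAR and featureCounts were used on mm10; the settings, strand mode included, are not given in the sources that were used. Library totals were 17591005 to 37894692 counts.

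Counts were tested in R 4.3.3 with edgeR 4.0.16 (robust quasi-likelihood F test, filterByExpr over 9 groups, TMM, treatment and line as terms) on 13827 of 24527 entries, with Benjamini-Hochberg adjustment over all of them and calls at 0.05. CPM use TMM-scaled totals. Line tests came from a model with a mean per group. Ratios used log2 counts with 0.5 added. Alternatives used DESeq2 1.42.0, limma 3.58.1 voom and other settings. The model code was tested on simulated data.

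The genes and lists were chosen with earlier results of these data known. Named genes were the 6 genes, the called list genes with the smallest p, and 3 genes most like each pump. Leaving out DMSO PD454 14 and TGFb PD883 12 together was chosen after seeing the data. Libraries of a group had r of 0.981 to 0.993, and their counts differed by more than sampling noise (chi-square per degree of freedom 4.79 to 86.8).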

Additional observations from a re-analysis of the deposited data

How the results depend on the processing

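No pump gene changed sign under any of the 33 alternatives run per treatment comparison. The number of pump genes called stayed at 5 except for 4 with ionomycin when duplicates were summed or without line PD7591, and 4 with TGFb without line PD7591. Over all genes, ionomycin against DMSO called 4599, 2152 with no line term and 1840 with duplicates summed, and TGFb against DMSO called 7015, or 4581 with duplicates summed. Scaling by library totals moved the median log2 fold change of all genes to -0.12 for ionomycin against DMSO, and the split of calls to 1937 higher and 2994 lower, against 2372 and 2227 with TMM.

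Line dependence was least stable. For ionomycin it was called for 1 pump gene with no low-count filter, with DESeq2 and when the 3 short-transcript libraries were left out, and for 0 to 1 leaving out 1 library at a time. Over all genes it was called for 358, and for 1050, 1284 and 929 under those alternatives and 106 to 675 leaving out 1 library. For TGFb it was called for 1 pump gene without DMSO PD454 14 and TGFb PD883 12, and for 0 to 1 leaving out 1 library. Over all genes it was called for 727, and for 1391 with no filter, 1486 with DESeq2, 311 without those 2 libraries and 403 to 1069 leaving out 1 library. The cause was not tested.

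Without a line, 36 arrangements cannot pass for the ratios (smallest exact permutation p 0.0556). Without PD454, PD7591 or PD883, the log2 ratio of Atp2a3 to Atp2a2 differed by 3.85, 3.19 or 4.04 between ionomycin and DMSO, by -3.59, -3.27 or -2.95 between TGFb and DMSO, and by 7.44, 6.46 or 6.99 between ionomycin and TGFb. That of Atp2b4 to Atp2b1 differed by 0.94, 1.13 or 1.90, by 7.48, 6.04 or 6.03, and by -6.53, -4.91 or -4.13 in the same order. For ionomycin against DMSO it was 1.12 without the libraries rich in short transcripts. Atp2b4 with TGFb had a log2 fold change of 5.42 with no line term and 6.78 without PD454. For ionomycin against TGFb, Atp2a3 had 8.84 without PD454. No paired analysis was possible because the groups share no replicate numbers; the shared lines were a term of the model instead. Slc8a1 had 23 counts in all and did not pass the low-count filter.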

Other observations

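The potassium-dependent exchanger gene Slc24a1 had 81 counts in all, of which 27 were in TGFb PD883 12 and 45 in DMSO PD454 14. The same 2 libraries held most counts of Slc8a1, and 133 and 209 entries had counts in that library only, against at most 90 in any of the other 16.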
